A study of Homo sapiens with 18 samples.

Results

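RNA sequencing was used to compare 786-O cells carrying a short hairpin RNA against RBCK1 with 786-O cells carrying a control hairpin. The genes described are all those that reached 1 FPKM in 3 or more libraries, which were 12227 of the 58735 genes listed. FPKM counts fragments relative to gene length and library size, so levels can be set side by side between genes. 786-O is an established line from a clear cell renal carcinoma that has no functional VHL, the ubiquitin ligase subunit that marks hypoxia-inducible factors for destruction. The 3 libraries labelled shRBCK1 and the 3 labelled shcontrol came from cultures in RPMI-1640 medium with serum, and the labels name no drug, no other genetic change and no time after delivery of the hairpin. The sequence of the hairpins and whether more than 1 was used are not given in the sources used here, so loss of RBCK1 and other effects of a hairpin cannot be told apart. The series also holds knockdowns of ANKRD35 and of MITD1, which the sample titles label as siRNA, each with its own control. The column headers of the ANKRD35 knockdown read ShRNA instead. The title of the series places both genes and ANXA1 downstream of RBCK1 in the response to sunitinib. The labels do not tie the libraries of a group to separate cultures, and p-values may rest on technical spread between libraries alone.

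RBCK1 encodes HOIL-1, which forms the linear ubiquitin chain assembly complex (LUBAC) together with the catalytic subunit HOIP, encoded by RNF31, and with SHARPIN. The complex builds head-to-tail ubiquitin chains at activated receptors of the TNF, interleukin-1 and Toll-like families, where the chains recruit the IKK kinases that release NF-kB dimers. OTULIN and CYLD take such chains apart, and TNFAIP3 (A20) and its partners bind them. Double-stranded RNA in the cytosol is sensed by the helicases RIG-I (DDX58) and MDA5 (IFIH1), which signal through MAVS to induce interferon beta, and secreted interferon then acts through its receptor, STAT proteins and IRF9 on antiviral genes.

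The 6 libraries held 16346478 to 18648246 reads, recovered from the FPKM values. Libraries of a group correlated at 0.9915 to 0.9924 (Pearson's r across genes, which are not independent replicates), and the first principal component separated the groups with 81.4% of the variance. Levels joined by "to" are the means of shcontrol and shRBCK1 in that order, with the SD over 3 libraries where shown. Over all named genes the median SD was 2.71% of the mean in shcontrol and 3.84% in shRBCK1 for levels from 5 FPKM, 8.46% and 6.93% for those between 1 and 5 FPKM, and 20.5% for the 14 levels under 1 FPKM in shRBCK1. Of the 12 markers of a clear cell renal carcinoma line, summing to 790.2 to 810.2 FPKM in shcontrol and 661.1 to 676.7 FPKM in shRBCK1, 11 passed the filter, among them PAX8 (29.6 to 39.6 FPKM), EPAS1 (27.4 to 31.9 FPKM) and CDH2 (92.4 to 72.1 FPKM), while CA9 was near 0. Markers of other cell types were low: the 7 fibroblast markers summed to 5.00 to 5.88 FPKM in shcontrol and 5.01 to 5.68 FPKM in shRBCK1 with DCN at 0, and the 6 blood cell markers to 2.28 to 2.81 and 2.88 to 3.92 FPKM with CD3E and HBB at 0. The 6 endothelial markers summed to 4.36 to 5.39 and 4.33 to 4.96 FPKM, and nearly all of that was EGFL7. The 5 markers of an embryonic kidney line summed to 34.3 to 35.0 and 33.5 to 36.5 FPKM, nearly all of it NEFL, with INA at 0. Among these, LAPTM5, of blood cells, was called higher (2.19 to 3.26 FPKM), a call lost without the filter on low values.

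The shcontrol libraries stood apart from the control libraries of the other knockdowns in the genes that changed most. Of 47 antiviral genes measured in all 3 tables, 40 had a higher mean in shcontrol than in both other control groups, as did 11 of 11 genes of ISG15 conjugation and 17 of 20 of antigen presentation. ISG15 was at 785.8 FPKM in shcontrol against 90.6 and 78.5 FPKM in the controls of the ANKRD35 and MITD1 tables, and interferon beta (IFNB1) at 3.54 FPKM against 0 in both. RBCK1 itself was 6.79 and 7.34 times as high in shcontrol as in those controls. In shRBCK1, 22 of the 47 antiviral genes lay below both other controls, 16 between them and 9 above both. The tables were normalized separately, and the part that the level of the shcontrol libraries played in the results was not tested.

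Promoters of 6 genes on which the results turn are shown first, as RefSeq gives them on GRCh38.p14: RBCK1 itself, the interferon-induced ISG15 and IFI6, the cytokine genes IFNB1 and IL6, and TOP2A of dividing cells. Each stretch is 300 bases, ends shortly after the gene's start and is written 5′ to 3′ on the gene's strand, which is plus for RBCK1, ISG15 and IL6 and minus for the others. Capitals mark matches, on either strand, to the interferon-stimulated response element (ISRE: GAAA, any 2 bases, GAAA) in the RBCK1, ISG15 and IFI6 promoters. In IFNB1 and IL6 they mark the kappa B motif of NF-kB dimers (GGG, any 3 bases, TTCC), and in TOP2A the cell cycle homology region (CHR, TTTGAA) and CCAAT boxes. A match is a description of the letters, not of a bound site or a cause.
RBCK1, chr20:408049-408348: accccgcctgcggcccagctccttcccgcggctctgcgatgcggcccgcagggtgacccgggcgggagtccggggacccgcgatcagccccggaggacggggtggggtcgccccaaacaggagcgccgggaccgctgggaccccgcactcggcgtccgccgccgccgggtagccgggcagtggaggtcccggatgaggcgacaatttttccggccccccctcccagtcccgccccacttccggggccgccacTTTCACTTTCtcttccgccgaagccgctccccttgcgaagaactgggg
ISG15, chr1:1013247-1013546: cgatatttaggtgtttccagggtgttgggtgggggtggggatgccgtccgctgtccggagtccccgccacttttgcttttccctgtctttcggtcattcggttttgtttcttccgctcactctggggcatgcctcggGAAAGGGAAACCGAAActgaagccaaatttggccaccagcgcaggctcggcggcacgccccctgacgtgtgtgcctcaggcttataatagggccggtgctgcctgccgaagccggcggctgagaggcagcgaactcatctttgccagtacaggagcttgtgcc
IFI6, chr1:27672143-27672442: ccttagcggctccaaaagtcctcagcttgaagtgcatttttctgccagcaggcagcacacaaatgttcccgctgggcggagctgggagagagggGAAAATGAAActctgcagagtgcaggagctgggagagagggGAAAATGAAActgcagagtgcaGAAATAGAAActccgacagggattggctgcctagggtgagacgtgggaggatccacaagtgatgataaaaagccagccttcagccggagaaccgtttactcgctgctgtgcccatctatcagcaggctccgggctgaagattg
IFNB1, chr9:21077893-21078192: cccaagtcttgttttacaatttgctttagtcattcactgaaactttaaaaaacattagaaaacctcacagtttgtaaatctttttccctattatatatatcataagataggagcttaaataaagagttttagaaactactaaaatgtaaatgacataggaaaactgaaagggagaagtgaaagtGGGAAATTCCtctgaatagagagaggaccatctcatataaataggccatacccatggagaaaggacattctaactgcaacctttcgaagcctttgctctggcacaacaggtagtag
IL6, chr7:22726950-22727249: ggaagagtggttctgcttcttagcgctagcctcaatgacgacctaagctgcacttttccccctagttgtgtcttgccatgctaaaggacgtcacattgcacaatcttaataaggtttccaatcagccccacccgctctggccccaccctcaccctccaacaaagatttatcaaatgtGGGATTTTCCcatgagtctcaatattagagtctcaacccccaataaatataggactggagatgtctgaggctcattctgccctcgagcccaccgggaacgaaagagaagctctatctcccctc
TOP2A, chr17:40417847-40418146: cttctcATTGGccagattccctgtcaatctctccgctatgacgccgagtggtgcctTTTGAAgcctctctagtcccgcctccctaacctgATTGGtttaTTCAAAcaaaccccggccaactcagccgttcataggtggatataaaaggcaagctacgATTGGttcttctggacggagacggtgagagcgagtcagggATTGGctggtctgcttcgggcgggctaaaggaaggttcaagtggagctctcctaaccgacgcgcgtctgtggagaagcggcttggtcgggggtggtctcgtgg
The RBCK1 match is on the opposite strand at bases 2 to 11 after the annotated start. ISG15 holds a pair of overlapping ISRE matches, which together span bases 113 to 98 before its start, and IFI6 holds 3, the nearest at bases 93 to 84 before its start. The kappa B match of IFNB1 lies 66 to 57 bases before its start and that of IL6 73 to 64 bases before.

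The response was lopsided in size. Of 12227 genes tested, 6000 (49.1%) passed at an adjusted p under 0.05, 2951 higher (24.1%) and 3049 lower (24.9%) in shRBCK1, and the median log2 change over all genes tested was 0.01. Counts of genes that rose or fell in every list below are to be read against these shares. A count near them says nothing particular about its list. Past 1.5-fold there were 255 higher (2.09%) and 593 lower (4.85%) genes, past 2-fold 35 higher (0.286%) and 247 lower (2.02%) genes, past 4-fold 0 higher and 72 lower (0.589%), and past 8-fold 0 higher and 30 lower. Folds in these counts are on the log2(FPKM + 1) scale, on which low genes change less than in FPKM, and calls are from limma with a trended variance and Benjamini-Hochberg adjustment. The excess of large decreases held among abundant RNAs, where 389 genes with at least 100 FPKM in shcontrol included 28 lower and 0 higher past 2-fold. Among the 383 genes under 1 FPKM in shcontrol, 154 were called higher and 0 lower, as the filter admits such a gene mainly through its shRBCK1 libraries. In the same way, a gene under 1 FPKM in shRBCK1 was admitted mainly through its shcontrol libraries, which favours a call of lower. With voom on the recovered reads, scaled by their sums alone, 6864 genes passed and 4191 of them were higher, against 2951 of 6000. Voom differs in model and input as well as in scaling: quantile normalization gave 3501 higher of 6150, and median-of-ratios scaling left the split at 2899 higher of 5992. The library sizes implied by the FPKM values were 1.025 to 1.028 times the recovered reads in shRBCK1 and 0.979 to 0.9906 times in shcontrol. The part of this difference between the groups in the split and in small changes was not tested. Fewer cells expressing a gene and less RNA per cell cannot be told apart in these bulk libraries.

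**Figure D1:**
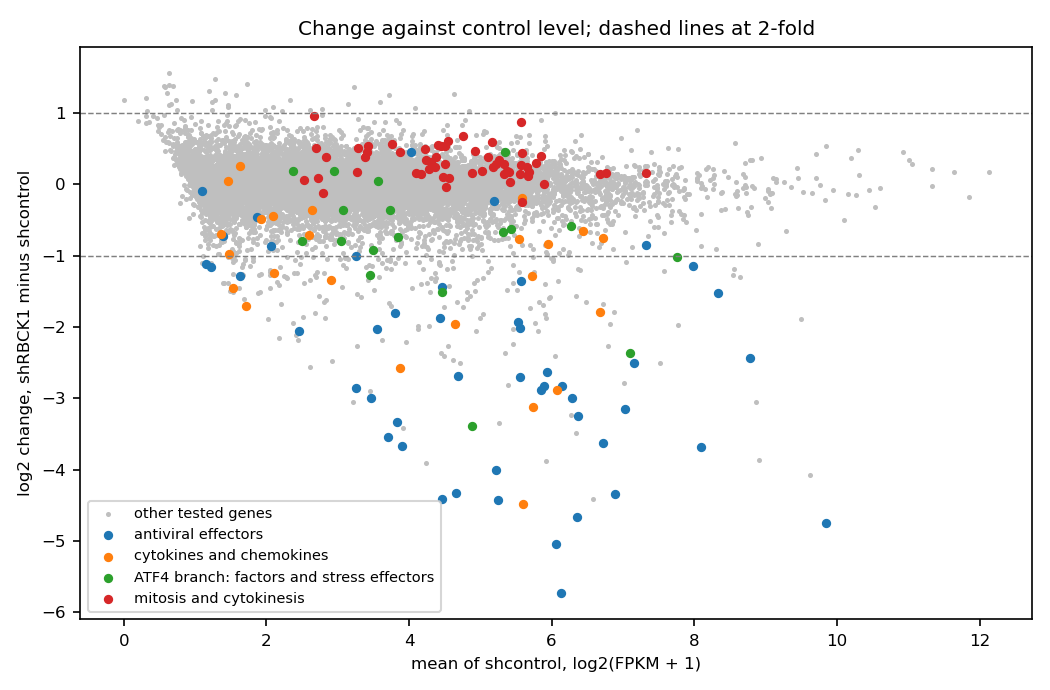
Change in shRBCK1 against shcontrol (log2 difference of group means) plotted against the shcontrol mean, both on log2(FPKM + 1), 1 point per gene tested, with 4 gene lists in colour. Antiviral effectors, cytokines and genes of the ATF4 branch reach far under the lower dashed line (2-fold lower), whereas mitosis genes sit slightly above 0 and stay under the upper line.

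RBCK1 RNA fell, and its partners fell by smaller log2 changes. RBCK1 (ENSG00000125826, chromosome 20, 407498 to 430966, plus strand) measured 487, 492 and 462 FPKM in the shcontrol and 30.8, 32 and 32.9 FPKM in the shRBCK1 libraries, so the groups did not overlap. This is a log2 change of −3.87 (SE 0.0381, limma adjusted p = 1.08e-09), and an exact permutation test of 3 against 3 libraries gave p = 0.1, the smallest it can give. The change is relative to a shcontrol level far above that of the other 786-O controls, 70.8 FPKM in the ANKRD35 table and 65.5 FPKM in the MITD1 table. The shRBCK1 mean was 31.9 FPKM. The labels give no reason for the shcontrol level, and its part in the fold was not tested. RNF31, which encodes the catalytic subunit HOIP, was at 6.86, 7.53 and 7.2 FPKM in shcontrol and 4.38, 4.25 and 4.89 FPKM in shRBCK1. SHARPIN, the remaining subunit, was at 27.1, 27.3 and 26.2 FPKM in shcontrol and 22.4, 24.2 and 24 FPKM in shRBCK1. Both fell without overlap between the groups, RNF31 by 1.6-fold and SHARPIN by 1.14-fold on the FPKM scale, which leaves SHARPIN the most abundant RNA of a LUBAC subunit after RBCK1.

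Of 12 tested genes that build, edit or read linear chains, 9 fell and 2 rose, and the median log2 change was −0.40. TNFAIP3, which encodes the ubiquitin-editing protein A20 and is itself an NF-kB target, fell from 16.4 ± 0.416 to 3.27 ± 0.303 FPKM. OPTN (optineurin, 42.9 to 21.5 FPKM) and TNIP1 (ABIN-1, 52.6 to 27.6 FPKM), which bind linear chains, also fell, as did the deubiquitinase gene CYLD (3.21 to 2.02 FPKM). IKBKG, the NEMO subunit of the IKK complex and a substrate of LUBAC, was at 5.37 and 4.94 FPKM in the respective groups and was not called. The deubiquitinase gene OTULIN was at 9.15, 9.74 and 10.1 FPKM in shcontrol and 10.8, 10.8 and 10.7 FPKM in shRBCK1, a change of 0.14 that ranged from 0.11 to 0.17 with any single library left out and passed only without shcontrol replicate 3, and the call was lost without the filter on low values. Its relative OTULINL had means of 0.913 and 1.38 FPKM, and its change of 0.32 ranged from 0.28 to 0.36 and was not called without shcontrol replicate 3, shRBCK1 replicate 1 or shRBCK1 replicate 2. Of 10 other tested ligases of the RBR class, to which HOIL-1 and HOIP belong, 3 fell and 0 rose. Over all genes tested 24.9% fell and 24.1% rose, so the number that fell is near that share. The largest change was that of RNF19B (22.8 to 11.9 FPKM).

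Most receptors and adaptors upstream of NF-kB fell. Of 23 genes tested, 17 fell and 3 rose, and the median log2 change was −0.31. MYD88, the adaptor of interleukin-1 and Toll-like receptors, was at 30.4, 30.6 and 31.8 FPKM in shcontrol and 7.91, 7.7 and 7.49 FPKM in shRBCK1, a 4.02-fold decrease without overlap. TLR3, a sensor of double-stranded RNA, fell from 4.59 to 1.77 FPKM and its adaptor TICAM1 from 14 to 8.49 FPKM. The TNF receptor TNFRSF1A rose from 53.9 ± 1.89 to 62.6 ± 0.918 FPKM, whereas BIRC2 (cIAP1, 25.6 to 14.7 FPKM), TRADD (9.8 to 6.75 FPKM), RIPK1 (12.4 to 9.65 FPKM) and TRAF2 (24.8 to 21.2 FPKM), which assemble at that receptor, fell. CD40 (20.6 to 14.7 FPKM) and LTBR (44 to 34.4 FPKM), receptors of the TNF family, fell too.

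NF-kB subunits and inhibitors fell together. Of 16 genes of the IKK kinases, NF-kB subunits and their inhibitors, 12 fell and 1 rose, and the median log2 change was −0.30. RELB, the subunit of the noncanonical pathway, was at 13, 12.1 and 12 FPKM in shcontrol and 4.49, 5.26 and 4.92 FPKM in shRBCK1. RELA (p65) fell from 35.7 ± 0.509 to 20.3 ± 0.483 FPKM, NFKB2 from 38.5 to 22.1 FPKM and NFKB1 from 17.1 to 13 FPKM. The inhibitor genes NFKBIA (31.5 to 16.1 FPKM) and NFKBIE (21.3 to 10.6 FPKM) fell too, with log2 changes of −0.93 and −0.94 beside −0.79 for RELA. BCL3, a nuclear member of the inhibitor family, rose from 8.14 to 10.7 FPKM. Of the kinases, CHUK (IKK-alpha) was at 6.51 and 6.22 FPKM and was not called.

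Most secreted signals that passed the filter fell. Of 39 cytokines and chemokines listed, 24 were tested. Of these 22 fell, 11 of them past 2-fold, and 1 rose, and the median log2 change was −0.90. IL6, a driver of acute inflammation, was at 51.5, 51.2 and 54.5 FPKM in shcontrol and 5.14, 4.86 and 5.49 FPKM in shRBCK1. CXCL8, the chemokine interleukin-8 that draws neutrophils, was at 65.1, 66.5 and 67 FPKM in shcontrol and 8.62, 8.38 and 7.46 FPKM in shRBCK1. CCL5 (RANTES), which attracts T cells, was at 47.7, 48.2 and 46.6 FPKM in shcontrol and 1.17, 1.29 and 1.06 FPKM in shRBCK1. In all 3 genes the highest shRBCK1 library lay far below the lowest shcontrol library, and the FPKM means differed 10.1-, 8.12- and 40.4-fold. CSF2 (GM-CSF) fell from 13.7 to 1.49 FPKM, CXCL1 from 23.9 to 5.44 FPKM, TNFSF10 (the death ligand TRAIL) from 102 to 28.9 FPKM and IL11 from 52.1 to 20.9 FPKM. CXCL10 had 134 reads in shcontrol and 0 in shRBCK1, at least 46.3-fold lower against a floor of 3 reads over the group. It passed the filter through shcontrol alone, so its call could only be lower. The exceptions were CX3CL1, at 1.75 and 1.84 FPKM and not called, and CCL28, called higher (2.11 to 2.71 FPKM). The CCL28 change of 0.25 ranged from 0.21 to 0.32 with single libraries left out and passed only without shRBCK1 replicate 1.

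Other NF-kB targets fell too, with a smaller median change. Of 21 such genes of adhesion, survival and metabolism, 15 fell and 3 rose, and the median log2 change was −0.50. SAA1, an acute phase protein, fell from 40.9 to 5.06 FPKM, the adaptor TRAF1 from 20.9 to 3.25 FPKM and the adhesion molecule ICAM1 from 58 ± 0.592 to 17.2 ± 0.456 FPKM. The survival genes BCL2A1 (3.51 to 0.683 FPKM) and BIRC3 (19.7 to 7.76 FPKM) fell as well. VCAM1, an adhesion molecule often listed beside ICAM1, was at 31.6 and 29.7 FPKM and was not called, and TNFAIP2 rose from 36.7 to 41.5 FPKM.

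Interferon beta and lambda 1 had reads in shcontrol alone, and the transcription factors around them fell. IFNB1, interferon beta, was at 4.71, 2.68 and 3.23 FPKM in the shcontrol libraries and at 0 in all 3 shRBCK1 libraries, 153 reads against 0 and at least 52.9-fold lower. It passed the filter through shcontrol alone, so its call could only be lower. IFNL1, interferon lambda 1, did not pass the filter, with 53 reads in shcontrol and 0 in shRBCK1, at least 18.3-fold lower. IRF7, the factor that amplifies interferon transcription, was at 9.3, 10.1 and 10.4 FPKM in shcontrol and 0.536, 0.495 and 0.401 FPKM in shRBCK1. STAT2 was at 23.2, 22.1 and 22.2 FPKM in shcontrol and 4.03, 3.67 and 3.89 FPKM in shRBCK1, 5.82-fold lower without overlap. IRF9, its DNA-binding partner, fell from 2.24 to 0.558 FPKM. IRF3, which is switched on by phosphorylation, was at 20.7 and 19.4 FPKM, and missed the threshold. The receptor gene IFNAR1 was called higher (10.4 to 11.8 FPKM), which was lost without the filter on low values and without shcontrol replicate 1, shcontrol replicate 2 or shRBCK1 replicate 1 (log2 change 0.15 to 0.22 over single libraries left out). JAK1, a kinase of that receptor, was called lower (44.4 to 39.3 FPKM), which was lost with quantile normalization. Of 19 tested genes of interferon ligands, receptors and JAK-STAT-IRF factors, 14 fell and 1 rose, and the median log2 change was −0.38.

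The sensors of foreign RNA and DNA fell, except for the adaptor of the RNA helicases. Of 15 tested genes, 14 fell, 11 of them past 2-fold, and 1 rose, and the median log2 change was −1.57. IFIH1 was at 36.7, 37.3 and 37.7 FPKM in shcontrol and 2.64, 2.69 and 3 FPKM in shRBCK1, and DDX58 fell from 76.5 ± 0.447 to 7.23 ± 0.124 FPKM. DHX58, a related helicase, fell from 4.18 to 0.351 FPKM, the RNA-activated kinase gene EIF2AK2 (PKR) from 28 to 8.78 FPKM and the RNA editor ADAR from 74.5 to 38.1 FPKM. On the DNA side TMEM173 (STING) fell from 18.9 to 8.57 FPKM, and CGAS, the enzyme that makes its ligand, from 9.19 to 7.5 FPKM. MAVS, the mitochondrial adaptor of DDX58 and IFIH1, was at 10.01, 9.27 and 9.99 FPKM in shcontrol and 15.8, 13.8 and 16.1 FPKM in shRBCK1. It was the single gene of the list that rose, by 1.56-fold on the FPKM scale, with every shRBCK1 library above every shcontrol library.

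**Figure D2:**
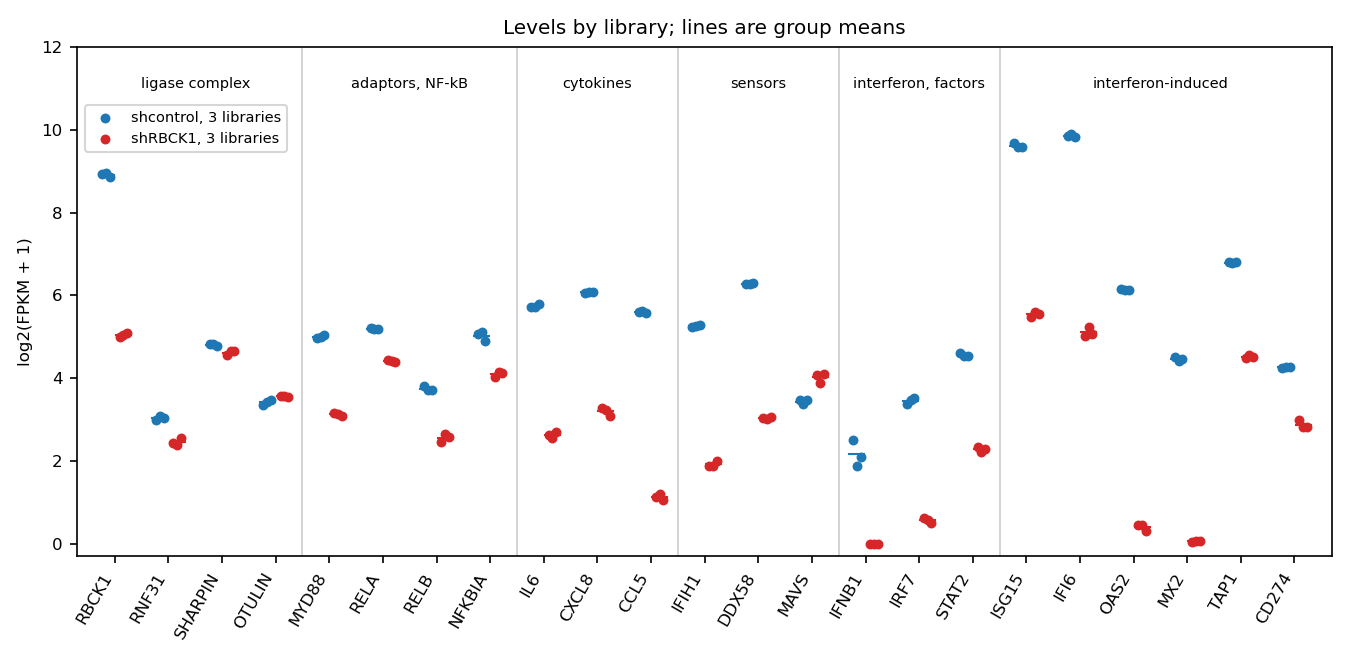
Level of 23 genes in each of the 6 libraries, on log2(FPKM + 1), with shcontrol in blue, shRBCK1 in red and lines at group means. The groups are separate in every gene shown, most widely in OAS2, IFI6 and CCL5, with OTULIN and MAVS higher in shRBCK1.

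Antiviral effectors had the lowest median change of all lists. Of 48 tested, 46 fell, 41 of them past 2-fold, and 1 rose, and the median log2 change was −2.66. For 47 of the 48 the groups did not overlap, against 59.0% of all genes tested. The 47 include members, such as OAS2 and MX2, that passed the filter through shcontrol alone. Their groups could only be separate, and their call could only be lower. OAS2, which makes the oligoadenylate second messenger of the antiviral response, was at 69.6, 69.1 and 68.4 FPKM in shcontrol and 0.358, 0.368 and 0.239 FPKM in shRBCK1, 215-fold lower. MX2, a dynamin-like GTPase that blocks viral nuclear import, was at 21.6, 20.4 and 21.2 FPKM in shcontrol and 0.032, 0.0453 and 0.0383 FPKM in shRBCK1. IFI6, the most abundant of them, was at 917, 946 and 906 FPKM in shcontrol and 31.4, 36.9 and 32.3 FPKM in shRBCK1. OAS2 and MX2 were thus near 0 in shRBCK1, while IFI6 was still well detected. IFIT3, which binds viral RNA together with IFIT1, fell from 272 ± 8.26 to 20.4 ± 0.585 FPKM, and BST2 (tetherin), which holds budding virions at the membrane, from 321 to 112 FPKM. The member that rose was APOBEC3C, a cytidine deaminase gene, from 15.3 ± 0.444 to 21.2 ± 0.194 FPKM. Other APOBEC3 genes of the same cluster fell, APOBEC3G from 3.17 to 1.29 FPKM and APOBEC3F from 2.66 to 1.66 FPKM; these paralogs are similar in sequence and the authors' counting could split reads between them.

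The ubiquitin-like modifier ISG15 fell with its whole conjugation pathway. ISG15 was at 818, 770.0 and 769 FPKM in shcontrol and 43.6, 47.4 and 45.9 FPKM in shRBCK1, 17.2-fold lower. Its activating enzyme UBA7 fell from 18.5 to 3.91 FPKM, the conjugating enzyme UBE2L6 from 128 to 17.6 FPKM, the ligase HERC5 from 25.9 to 7.2 FPKM and the protease USP18, which removes ISG15 and restrains the interferon receptor, from 59.3 ± 1.69 to 3.13 ± 0.425 FPKM. The interferon-linked ADP-ribosyltransferases PARP9 (25.3 to 3.62 FPKM) and PARP14 (42.8 to 8.24 FPKM) and the PARP9 partner DTX3L (55.3 to 12.5 FPKM) fell also. All 11 genes tested fell past 2-fold, with log2 changes between −4.08 and −1.71 and a median of −2.24.

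**Figure D3:**
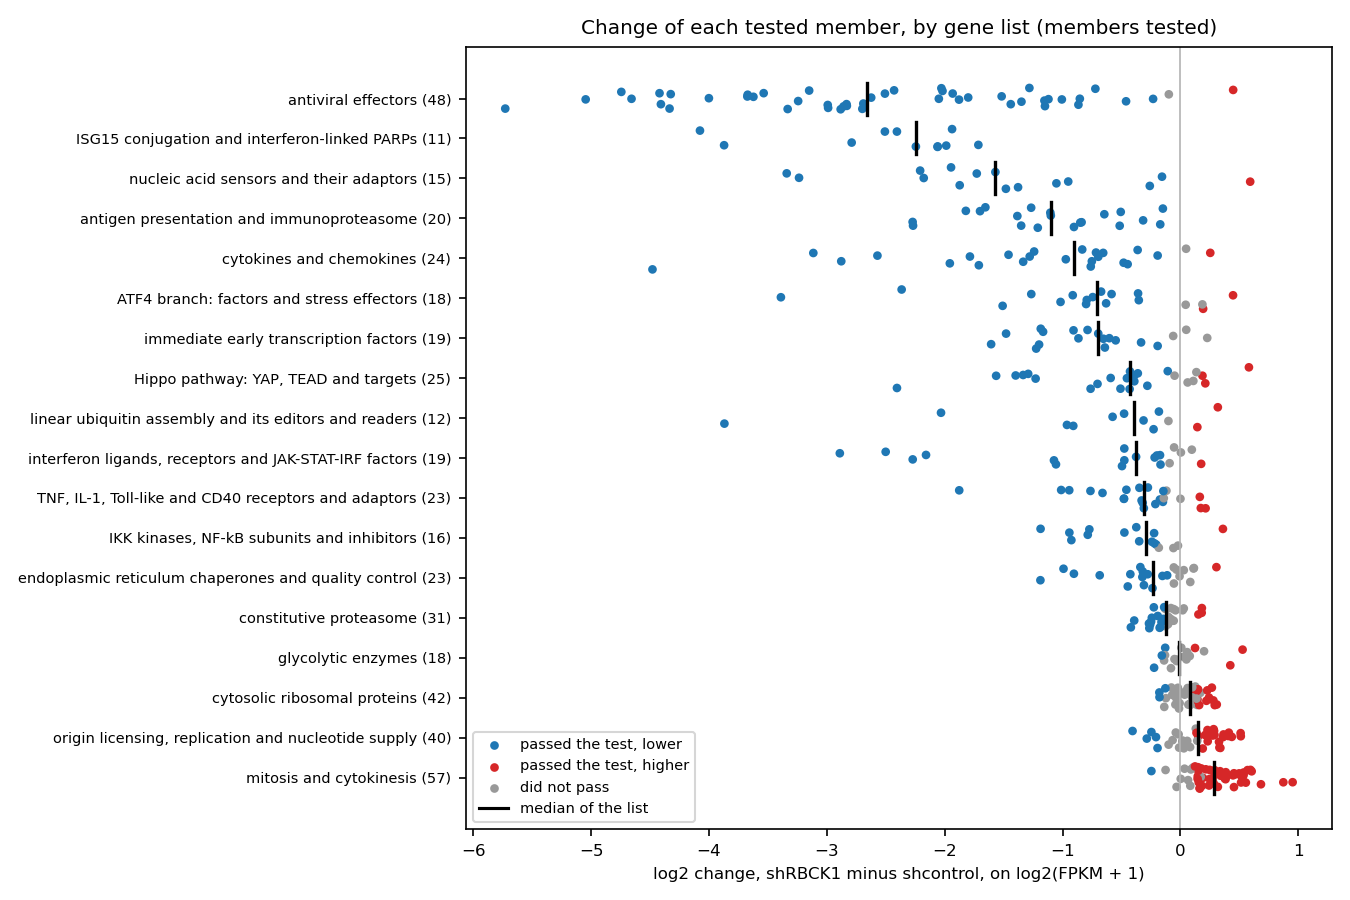
Log2 change (shRBCK1 minus shcontrol, on log2(FPKM + 1)) of every tested member of 18 gene lists, coloured by whether it passed the test, with the list median as a black bar. The medians run from −2.66 for antiviral effectors to 0.28 for mitosis and cytokinesis.

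Antigen presentation genes fell without exception among those tested. All 20 fell, 11 of them past 2-fold, and the median log2 change was −1.10. TAP1, which pumps peptides into the endoplasmic reticulum, was at 110.1, 109 and 110.3 FPKM in shcontrol and 21.4, 22.4 and 21.9 FPKM in shRBCK1. NLRC5, the activator of class I genes, fell from 12.4 to 3.14 FPKM, and B2M, the shared light chain, from 315 to 168 FPKM. Of the class I heavy chains HLA-B fell from 372 to 154 FPKM and HLA-F from 8.62 to 1.01 FPKM, although reads of these near-identical genes may be split between them. The checkpoint ligand genes CD274 (PD-L1) and PDCD1LG2 (PD-L2) fell from 18.1 ± 0.225 to 6.34 ± 0.522 FPKM and 24.4 ± 0.823 to 7.07 ± 0.0805 FPKM. ERAP2, a peptide-trimming enzyme, had the smallest decrease (31.7 to 28.6 FPKM), and its call was lost with quantile normalization, with voom and without shcontrol replicate 1, shRBCK1 replicate 2 or shRBCK1 replicate 3 (log2 change −0.19 to −0.13 over single libraries left out).

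Among proteasome genes the large decreases were those of the immunoproteasome. The inducible catalytic subunits PSMB8 (67.3 to 25.8 FPKM), PSMB9 (59 to 16 FPKM) and PSMB10 (12.9 to 5.5 FPKM) fell with log2 changes of −1.35, −1.82 and −1.10. The constitutive subunits they replace had log2 changes of −0.09 (PSMB5, called only without shcontrol replicate 3, at −0.13), −0.23 (PSMB6, not called with quantile normalization) and −0.26 (PSMB7). Of 31 tested genes of the constitutive proteasome, 14 fell and 3 rose, none past 2-fold, and the median log2 change was −0.13.

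Most genes of cell death that changed fell. Of 17 tested death receptors, caspases and necroptosis genes, 11 fell and 1 rose, and the median log2 change was −0.35. The inflammatory caspases CASP1 (3.16 to 0.521 FPKM) and CASP4 (8.89 to 4.19 FPKM) and the necroptosis effector MLKL (10.9 to 5.8 FPKM) fell, and the apoptotic caspase CASP6 rose from 11.4 to 14.5 FPKM. In the BCL2 family 7 of 14 fell and 2 rose. PMAIP1 (NOXA), which opposes MCL1, fell from 116 ± 3.53 to 32.8 ± 2.02 FPKM, and BBC3 (PUMA) from 2.52 to 1.07 FPKM, but so did their survival counterparts MCL1 (98.9 to 61.4 FPKM) and BCL2L1 (46.5 to 29.98 FPKM). BMF, a further member that promotes death, was at 1.55, 1.32 and 1.22 FPKM in shcontrol and 3.84, 3.74 and 3.93 FPKM in shRBCK1, 2.82-fold higher without overlap.

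The ATF4 arm of the stress response fell. ATF4, the transcription factor at its centre, was at 218, 215 and 212 FPKM in shcontrol and 105, 109 and 103 FPKM in shRBCK1. ATF3, a stress-induced factor, fell from 28.4 ± 0.324 to 1.82 ± 0.271 FPKM, DDIT3 (CHOP) from 21 to 6.74 FPKM and PPP1R15A (GADD34), which reverses the translation block, from 136 to 25.5 FPKM. Of 18 tested genes 14 fell and 2 rose, and the median log2 change was −0.71. DDIT4, an inhibitor of mTORC1 that hypoxia also induces, rose from 39.7 to 54.5 FPKM. Of 18 tested genes of serine metabolism, asparagine synthesis and amino acid transport, 13 fell and 4 rose, and their median was −0.24. The transporter genes SLC3A2 (131 to 61.3 FPKM) and SLC7A11 (8.89 to 4.96 FPKM), which together form the cystine importer, fell. SHMT1, the cytosolic serine hydroxymethyltransferase, rose from 5.36 to 7.68 FPKM.

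Among 20 cytosolic aminoacyl-tRNA synthetases 9 fell and 4 rose, and the median log2 change was −0.09. WARS, the tryptophanyl enzyme and the member of this family known to be interferon-inducible, was at 61.7, 62.6 and 61.6 FPKM in shcontrol and 20.3, 20.1 and 19.99 FPKM in shRBCK1. The cysteinyl enzyme gene CARS fell from 9.14 to 4.72 FPKM, whereas QARS, the glutaminyl enzyme, rose from 21.2 to 26 FPKM. Of 23 endoplasmic reticulum chaperone and quality control genes 14 fell and 1 rose, and their median was −0.24. The chaperone HSPA5 (BiP) fell from 377 ± 1.31 to 165 ± 3.15 FPKM, the unfolded protein response factor XBP1 from 73.7 to 36.6 FPKM and HERPUD1 from 18.2 to 9.31 FPKM, and SEL1L, of the same degradation machinery, rose from 14.2 to 17.8 FPKM. Of 15 heat shock chaperones outside the reticulum 7 rose and 3 fell, the cytosolic HSP90AA1 (437 to 556 FPKM) and the mitochondrial HSPE1 (33.5 to 44.1 FPKM) among those that rose.

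Immediate early transcription factors fell. Of 19 tested, 16 fell and 0 rose, and the median log2 change was −0.70. MYC was at 83.2, 84.8 and 81.3 FPKM in shcontrol and 34.1, 35 and 37.8 FPKM in shRBCK1. KLF4 fell from 27 ± 1.31 to 8.21 ± 0.491 FPKM, MAFF from 10.4 to 3.09 FPKM, JUNB from 81.9 to 35.5 FPKM, EGR1 from 2.15 to 0.403 FPKM and JUN from 179 to 117 FPKM. The phosphatase genes that switch MAP kinases off fell with them, DUSP1 from 88 to 27.6 FPKM and DUSP6 from 3.85 to 2.52 FPKM, and of 17 such feedback genes 12 fell and 2 rose. Across 35 tested factors of the bZIP family, to which JUN, ATF and MAF proteins belong, 21 fell and 6 rose, and their median was −0.34. For comparison, all 852 tested transcription factors had 247 lower and 168 higher.

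Most targets of the Hippo pathway fell, and the co-activator YAP1 rose. Of 25 tested genes 18 fell and 3 rose, and the median log2 change was −0.43. ANKRD1, a target of YAP and TEAD, fell from 64.9 ± 2.66 to 11.4 ± 0.236 FPKM, CTGF from 79.9 to 26.3 FPKM, CYR61 from 396 to 161 FPKM and AMOTL2 from 45.6 to 18.9 FPKM. YAP1 itself rose from 21.7 to 25.3 FPKM. Of 8 genes that bind AU-rich elements of short-lived messengers, 5 fell and 3 rose: the destabilizing ZFP36L2 fell from 29.96 to 15.8 FPKM, and ELAVL1 (HuR), which stabilizes such messengers, rose from 16.3 to 22.3 FPKM.

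Genes of the hypoxia programme, which is constantly active in a line without VHL, did not move as a group. Of 28 tested, 10 rose and 8 fell, and the median log2 change was 0.02. VEGFA, the main angiogenic ligand, was at 26.3, 26.8 and 26.6 FPKM in shcontrol and 49.8, 49.6 and 52.1 FPKM in shRBCK1. It rose 1.9-fold on the FPKM scale, with every shRBCK1 library above every shcontrol library. CA12, a carbonic anhydrase, rose from 22.1 to 40.3 FPKM and EPAS1 (HIF-2-alpha), the main factor of this programme in renal carcinoma, from 27.4 to 31.9 FPKM. Among 26 receptor tyrosine kinases and angiogenic ligands 9 fell and 3 rose. EPHA2 fell from 139 to 75.2 FPKM, AXL from 121 to 89.4 FPKM and VEGFC, the lymphatic ligand, from 22.3 to 12.3 FPKM, whereas NRP1, a co-receptor of VEGFA, rose from 25 to 34.2 FPKM. KDR, FLT1, KIT, PDGFRA and PDGFRB, which are targets of sunitinib, did not reach the filter.

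Of 17 renal, epithelial and mesenchymal genes 9 fell and 4 rose, with a renal lineage factor among those that rose. The kidney transcription factor gene PAX8 was at 29.2, 31.1 and 28.6 FPKM in shcontrol and 39.1, 38.4 and 41.3 FPKM in shRBCK1, which did not overlap. CLDN1, a tight junction protein, fell from 59.7 ± 0.70 to 30.4 ± 1.04 FPKM, NNMT from 102 to 57.3 FPKM and CDH2 (N-cadherin) from 92.4 to 72.1 FPKM. VIM (vimentin) fell from 392 to 312 FPKM, a call lost with quantile normalization. Of 29 matrix genes 9 rose and 9 fell: MMP2 (70.9 to 99.4 FPKM) and FN1 (447 to 568 FPKM) rose, and PLAUR (52.5 to 25.3 FPKM), PLAU (100.2 to 54 FPKM) and THBS1 (162 to 97.2 FPKM) fell. ITGB8, an integrin chain that activates TGF-beta, was at 2.81, 2.99 and 3.07 FPKM in shcontrol and 7.49, 6.86 and 7.1 FPKM in shRBCK1, and among 13 integrin genes 5 rose and 3 fell.

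Cell division genes rose by small amounts. Of 57 mitosis and cytokinesis genes 47 rose and 1 fell, none past 2-fold, against 24.1% of all genes called higher, and the median log2 change was 0.28. TOP2A, which untangles chromosomes, was at 46.4, 47.3 and 46.5 FPKM in shcontrol and 91.3, 83.3 and 85 FPKM in shRBCK1. SPC24, of the kinetochore, was at 5.6, 5.66 and 4.87 FPKM in shcontrol and 11, 11.4 and 11.6 FPKM in shRBCK1. In both genes the groups were separate. KIF20A rose from 26 to 42.4 FPKM and NCAPD2, of condensin, from 34.7 to 52.9 FPKM. AURKB, a kinase of the centromere, was the single one that fell (47.1 to 39.5 FPKM). Of 40 genes of origin licensing, replication and nucleotide supply 21 rose and 5 fell, and their median was 0.15. MCM6 (15.8 to 23 FPKM) and RRM2 (17.4 to 25.2 FPKM) rose, and the licensing factors ORC6 (21.9 to 16.3 FPKM) and CDT1 (25.3 to 20.6 FPKM) fell.

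Regulators of G1 included brakes that rose and brakes that fell. CDKN2C (p18), an inhibitor of CDK4 and CDK6, was at 15.6, 15.8 and 16.2 FPKM in shcontrol and 32.5, 36.8 and 34.5 FPKM in shRBCK1, and the pocket protein gene RBL1 (p107) rose from 6.4 ± 0.454 to 10.9 ± 0.451 FPKM. E2F8 (3.43 to 6.53 FPKM) and SKP2 (12.9 to 20.3 FPKM) rose, and CDKN1A (p21, 33.4 to 22.2 FPKM), CCND3 (20.5 to 13.7 FPKM) and E2F7 (24.6 to 16.7 FPKM) fell. Of 25 tested genes 12 rose and 5 fell, and the median log2 change was 0.13. In a list of 22 p53 targets 9 fell and 5 rose. GADD45A, which both ATF4 and p53 can induce, had the largest change of that list, falling from 218 ± 4.43 to 54.8 ± 3.61 FPKM.

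Counts of metabolic genes are read against the 24.1% of all genes tested that rose and the 24.9% that fell. SCD, which desaturates fatty acids, was at 64, 65.7 and 66.2 FPKM in shcontrol and 136, 127 and 132 FPKM in shRBCK1, and of 17 fatty acid genes 7 rose and 2 fell. Of 24 genes of cholesterol synthesis and uptake 10 rose and 4 fell. Of 18 glycolytic enzymes 3 rose and 3 fell, smaller shares than over all genes. HMOX1, heme oxygenase, fell from 112 ± 4.46 to 28.1 ± 1.17 FPKM, and of 24 genes of NRF2 targets, iron handling and ferroptosis 14 fell and 4 rose, TFRC, the transferrin receptor, among those that rose (58.9 to 90.1 FPKM). Of 31 complex I genes 13 rose and 1 fell, of 42 cytosolic ribosomal protein genes 14 rose and 3 fell, and their median log2 changes were 0.11 and 0.08. The median of all genes was 0.01, and 0.07 with voom.

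Of the remaining genes of the axis in the series title, ANXA1 fell by a small amount, MITD1 was not called and ANKRD35 was hardly detected. ANXA1, annexin A1, was lower in shRBCK1 by 1.29-fold (145 ± 1.26 to 112 ± 4.43 FPKM), and of 9 annexins 4 fell and 1 rose. The largest decrease among them was that of ANXA3, from 21.6 ± 0.607 to 11.8 ± 0.591 FPKM. MITD1, which binds ESCRT-III in cytokinesis, had a log2 change of −0.04 that did not pass and was 0.016 with voom, and ANKRD35 was not tested, with 0 reads in shcontrol and 1 in shRBCK1. Of 18 ESCRT-III genes and partners 7 fell and 5 rose, and CHMP5, a late-acting subunit, fell from 62.8 ± 1.6 to 30.1 ± 1.32 FPKM.

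Most genes with large increases stood outside the lists, 30 of 35 past 2-fold, against 113 of 247 among the large decreases. KCNJ16, a potassium channel subunit of kidney tubules, was at 1.44, 1.5 and 1.32 FPKM in shcontrol and 5.77, 5.96 and 5.55 FPKM in shRBCK1, 4.05-fold higher. SIGLEC15, a sialic acid receptor, was at 8.28, 8.62 and 8.26 FPKM in shcontrol and 22.7, 23.1 and 23.5 FPKM in shRBCK1. The noncoding RNA DANCR was at 4, 4.14 and 3.96 FPKM in shcontrol and 10.3, 10.5 and 10.6 FPKM in shRBCK1. CYP1B1 (11 to 25.6 FPKM), CHST1 (1.99 to 6.11 FPKM) and the clock-output factor gene TEF (3.28 to 8.09 FPKM) rose too. These increases were drawn from genes whose groups do not overlap, so their separation is not a result. Among large decreases outside the lists, the interferon-inducible factor gene BATF2 fell from 8.28 to 0.119 FPKM and the endolysosomal transporter gene SLC15A3 from 14.1 to 0.419 FPKM.

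Of 27 tested noncoding RNAs 12 fell and 6 rose. NEAT1, the scaffold of paraspeckles, fell from 11.8 ± 1.31 to 4.65 ± 0.122 FPKM, MALAT1 from 28.2 to 15.1 FPKM, and GAS5 and SNHG15, hosts of small nucleolar RNAs, from 55.5 to 34.9 FPKM and 17.5 to 9.44 FPKM. Short structural RNAs, named here after their values were seen, changed in both directions. Of 47 tested genes annotated as misc_RNA 6 rose and 7 fell, and of 44 annotated as snRNA 5 rose and 3 fell. These are smaller shares than the 24.1% and 24.9% over all genes tested. MT-TG and MT-TR, mitochondrial transfer RNAs, rose from 23.7 to 57.2 FPKM and 27.7 to 57.9 FPKM, and RNU6-850P, annotated as a U6 small nuclear RNA copy, rose from 1.76 to 5.14 FPKM, a call lost without the filter on low values. RNA5-8SN2, 5.8S ribosomal RNA, was at 89.7, 82.7 and 69.2 FPKM in shcontrol and 4.09, 9.28 and 6.16 FPKM in shRBCK1, and MIR3648-1, in the same ribosomal DNA array on chromosome 21, fell from 94.4 ± 15.3 to 3.52 ± 0.79 FPKM. RN7SL2, of the signal recognition particle, was at 430.4, 398 and 562 FPKM in shcontrol and 40.7, 32.3 and 121 FPKM in shRBCK1, with shRBCK1 replicate 3 the highest of its group. The mitochondrial share of reads was 2.30 to 2.46% in shcontrol and 2.78 to 2.86% in shRBCK1. These measures of library composition moved with the groups, and their part in the other results was not tested.

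Motif matches could be set beside the changes for 8653 of 10524 tested protein-coding genes (82.2%) with a RefSeq promoter of 300 bases. Motifs were searched on both strands, and a gene with no match lacks only these letters in this window. An ISRE occurred in 247 of the 8653 promoters (2.85%) and the kappa B motif in 664 (7.67%). An ISRE occurred in 53.7% of the 54 promoters found for genes at least 4-fold lower and in 62.5% of 16 of antigen presentation. The ATF4 composite motif (TGATGNAA) was in 37.5% of 16 aminoacyl-tRNA synthetase promoters, in 11.8% of 17 promoters of the ATF4 branch and in 1.62% of all. The median log2 changes of these lists were −0.09 for the synthetases and −0.71 for the ATF4 branch. The endoplasmic reticulum stress element (ERSE), which contains a CCAAT box, was in 28.6% of 21 promoters of chaperone and quality control genes and in 0.162% of all. In the lists of cell division genes, the CHR (TTTGAA) was in 70% of 50 promoters of mitosis and cytokinesis genes and in 9.35% of all, and the E2F motif (TTTNGCGC) in 40% of 35 of replication genes and in 3.11% of all. Over all 2162 promoters of genes called higher the shares were 11.5% for the CHR and 3.93% for E2F. The TEAD motif (GGAATG) was in 35% of 20 Hippo pathway promoters and in 10.6% of all. Promoters were found for under 80% of the antiviral genes, cytokines, nucleic acid sensors and genes past 2-fold in either direction, so their shares are void and not given.

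**Figure D4:**
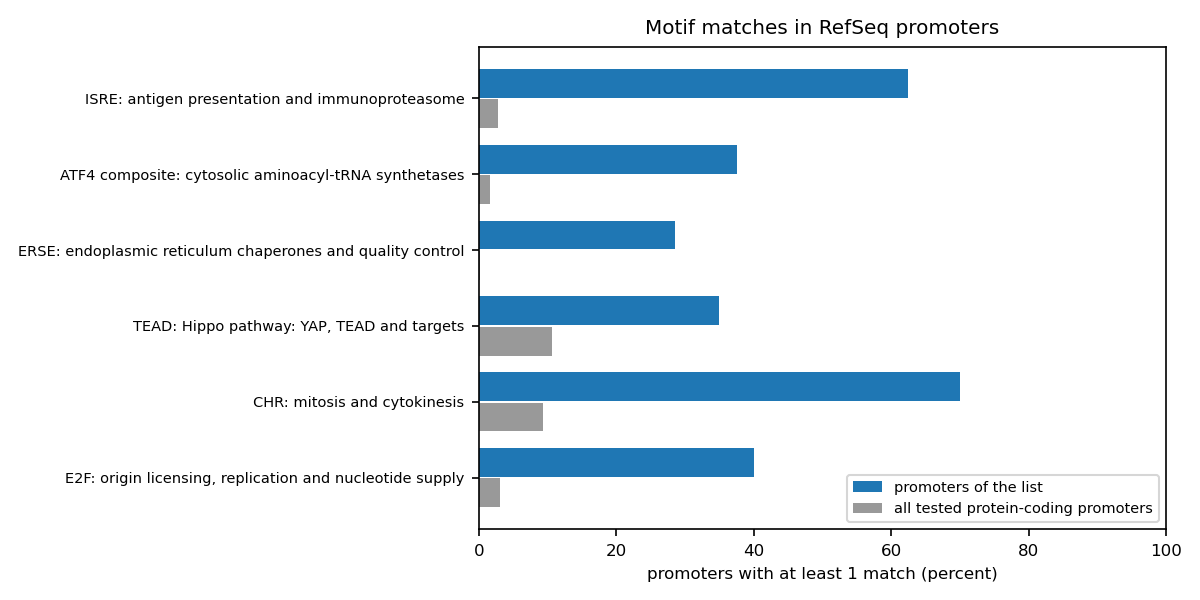
Percent of promoters with at least 1 match to a motif, in a gene list (blue) and in all 8653 tested protein-coding genes with a RefSeq promoter (grey). Bars run from 28.6% to 70% in the lists and from 0.162% to 10.6% over all promoters.

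Part of the large decreases lay in runs of neighbouring genes, only some of which are gene families. A run was 3 or more genes, called and at least 2-fold lower, with starts no more than 500 kb apart from one to the next, and 14 such runs held 53 of the 247 genes. OAS1, OAS3 and OAS2 (chromosome 12, 112906777 to 113011723) were all 3 of the tested genes in their span. The 4 IFIT genes (chromosome 10, 89283694 to 89421001) were 4 of 6, and the GBP genes (chromosome 1, 89006666 to 89426243) made 5 of 7. PARP9, DTX3L and PARP14 (chromosome 3, 122527924 to 122730840) were 3 of 3, and TAP2, PSMB8, PSMB9 and TAP1 in the major histocompatibility complex (chromosome 6, 32821833 to 32859585) 4 of 5. CXCL8, CXCL1 and CXCL2 (chromosome 4, 73740506 to 74099293) were 3 of 5. Other runs were not of 1 family: ISG15 and HES4 were among 5 of 9, HMOX1, APOL6 and APOL3 were 3 of 6, and NAPRT and PARP10 were among 6 of 22. Coordinates are those of the table, which match GRCh38.

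Most interferon-related decreases were larger after RBCK1 knockdown than after both other knockdowns. The 10697 genes compared had passed the filter in the shRBCK1 and shcontrol libraries and were listed once by name in all 3 tables. Values of 0 were allowed in the ANKRD35 and MITD1 tables, so the shares describe genes selected through the RBCK1 comparison. Limma contrasts found a different change from the ANKRD35 knockdown in 5376 genes (50.3%) and from the MITD1 knockdown in 5405 (50.5%). They found 1112 genes (10.4%) with a lower change than in both the ANKRD35 and the MITD1 knockdown and 996 (9.31%) with a higher one, and both contrasts share the shRBCK1 and shcontrol libraries. Of 47 antiviral genes 42 were lower than in both, as were 11 of 11 of ISG15 conjugation, 12 of 13 sensors, 13 of 20 antigen presentation genes and 15 of 24 cytokines. IFI6 had log2 changes of −4.74, 0.36 and −0.21 in the RBCK1, ANKRD35 and MITD1 knockdowns, which differ by −5.11 (SE 0.118, limma adjusted p = 1.28e-14) and −4.54 (SE 0.118, limma adjusted p = 3.34e-14). Other genes of these lists were lower in the ANKRD35 knockdown too, where the median log2 change of the sensors was −0.56 and IFIT3 had −1.26, IFIH1 −1.08, IRF7 −0.69 and OAS2 −0.61. Some could hardly fall in those knockdowns: IFNB1 was listed at 0 in both other controls, MX2 was at 0.00284 FPKM in the ANKRD35 control and TAP1 at 0.00512 FPKM in the MITD1 control. Most of the antiviral, ISG15, sensor and antigen presentation genes had their highest control level in the RBCK1 table, and the part of that level in the differences was not tested.

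Other genes went in the opposite direction in at least 1 of the other knockdowns. HMOX1 had log2 changes of −1.96, 2 and −0.14, SCD of 1.002, −1.75 and −0.26, and DDIT3 of −1.51, −0.07 and 1.72, in the same order. Each of these differences from RBCK1 passed. HMOX1 went the other way in the ANKRD35 knockdown, DDIT3 in the MITD1 knockdown and SCD in both. Levels in shcontrol and in the ANKRD35 and MITD1 controls were far apart. They were 112, 169 and 45.8 FPKM for HMOX1, 65.3, 26 and 459 FPKM for SCD, and 21, 124 and 6.32 FPKM for DDIT3. In siANKRD35, HMOX1 was at 697 ± 195 FPKM. The part of these levels in the differences was not tested. For VEGFA the change was 0.90 against 1.05 in the MITD1 knockdown, a difference of −0.15 (SE 0.105) that did not pass (limma adjusted p = 0.26), and for SPC24 0.95 against 0.90 in the ANKRD35 knockdown (difference 0.05, SE 0.121, limma adjusted p = 0.729). Of 57 mitosis genes 11 were higher than in both other knockdowns, against the 9.31% over all genes compared, with median log2 changes of 0.28, 0.25 and 0.04.

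**Figure D5:**
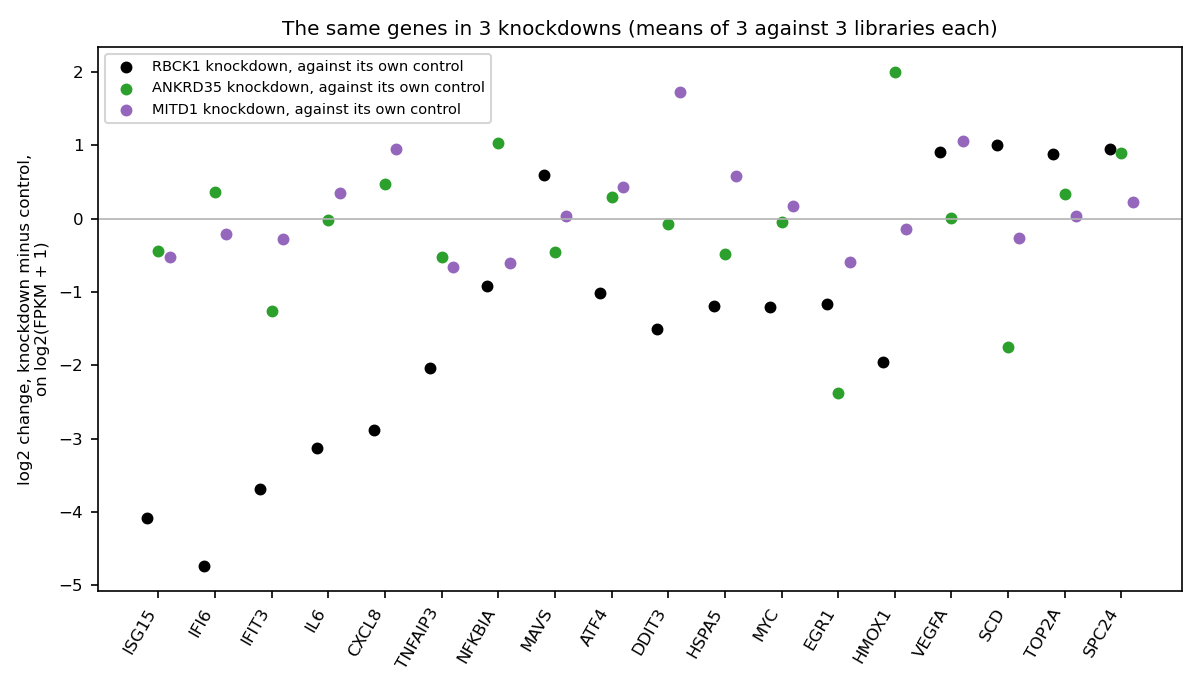
Log2 change of 18 genes (knockdown minus own control, on log2(FPKM + 1), means of 3 against 3 libraries) in the RBCK1, ANKRD35 and MITD1 knockdowns. The RBCK1 point is the lowest of the 3 knockdowns for ISG15, IFI6, IFIT3, IL6 and CXCL8, among others, while HMOX1 and SCD lie on opposite sides of 0 in the RBCK1 and ANKRD35 knockdowns.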

How the data were processed

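RNA was sequenced from 3 shRBCK1 and 3 shcontrol libraries prepared with a directional kit, per the labels' protocols. The authors deposited FPKM values per gene, per the file headers, with gene lengths and human coordinates; the submitters' processing notes name mm10, a mouse build, and the aligner and counting strand are not given in the sources used here. FPKM times gene length gave whole reads for all values within 0.01 reads, and their sums are the depths stated. For this report, log2(FPKM + 1) was tested in R 4.3.3 with limma 3.58.1 (trended variance, Benjamini-Hochberg over 12227 genes, adjusted p under 0.05), unblocked. Counts were thought possible when the tests were set, but the table holds FPKM, so voom on the recovered reads is an alternative. On simulated data the procedure recovered 10.5, 78.5 and 92.5% of 200 genes changed 1.25-, 1.5- and 2-fold among 12227. False calls numbered 2, 16 and 12. The simulation used 1 fixed dispersion and changed far fewer genes than the 6000 called in the data. Its shares therefore do not give the recovery in the data.

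Differences between knockdowns are limma contrasts over 18 libraries. Members and gene lists were chosen with earlier results of these data known. Named genes are the genes of the series title, the largest changes in genes whose groups do not overlap, the members of each list with the smallest adjusted p in each direction, genes in runs of neighbours, and list members that answer a role; others were chosen after their values were seen. Alternatives were the pseudocount, filters, scaling, voom, the replicate number as a block, a gene length correction and leaving out each library. The ANKRD35 table held 6 other value columns, which were not used. Some transcripts share reads with near-identical copies (HLA, histone and ribosomal RNA genes), and genes on opposite strands that overlap are uncertain. Results for some genes of these lists are not reported here.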

Additional observations from a re-analysis of the deposited data

Results flagged for a closer look

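The response to RBCK1 knockdown differed from that to the other knockdowns in many genes by limma contrasts with Benjamini-Hochberg adjustment. Of 10697 genes compared, 5376 (50.3%) had a different log2 change from the ANKRD35 knockdown and 5405 (50.5%) from the MITD1 knockdown. The genes compared were those that passed the filter in the shRBCK1 and shcontrol libraries. Both contrasts rest on the same shRBCK1 and shcontrol libraries, so they are not independent of each other.

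For the targeted gene RBCK1 the differences in log2 change (RBCK1 knockdown minus the other) were −3.68 against ANKRD35 and −4.39 against MITD1. For ISG15 they were −3.64 and −3.55, and for IL6, the cytokine gene, −3.09 and −3.46. ATF4, the stress factor, differed by −1.31 and −1.45 and HMOX1, heme oxygenase, by −3.96 and −1.82. Differences were positive for MAVS, the sensor adaptor, at 1.05 and 0.551, for SCD, the desaturase, at 2.75 and 1.26, and for TOP2A at 0.54 and 0.844. EGR1, an immediate early factor, fell less than in the ANKRD35 knockdown, a difference of 1.21, and more than in the MITD1 knockdown, a difference of −0.573. ANXA1 differed from the ANKRD35 knockdown by −0.641 and MITD1 by −0.362, while MITD1 differed from the knockdown aimed at it by 1.16. In IL6 the control groups were far apart, with 52.4 FPKM in shcontrol, 603 FPKM in the control of the ANKRD35 table and 8.2 FPKM in that of the MITD1 table. Those of HMOX1 and SCD, given above, differed too.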

How the results depend on the processing

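The count of genes called ranged from 4952 to 5471 with a library left out (2410 to 2659 higher, 2542 to 2812 lower), and was 4984 without the filter, 4504 with at least 5 FPKM in 3 libraries and 6864 with voom (4191 higher). Genes at least 2-fold higher numbered 35, but 104 with a pseudocount of 0.1, 17 with the 5 FPKM filter and 143 with voom. The cause with voom was not tested. A smaller pseudocount enlarges the log2 changes of low genes by construction, and the 5 FPKM filter leaves fewer genes. Cytokines called lower went from 22 to 14 with that filter, which leaves fewer of them. MITD1 turned from −0.04 to 0.016 with voom (limma adjusted p = 0.886). At a 1.5-fold minimum, 31 runs of lower and 9 of higher neighbours replaced 14 and 1, and the share of lower genes among kappa B promoters went from 3.46 to 7.08%, by construction, both void as promoters were found for 75.4 and 75.9% of lower genes. The pairing was checked through deviations from group means: same-numbered libraries correlated at −0.0068, 0.0076 and 0.0284, so the numbers share no more than a name, and the replicate block gave 5347 calls, 2564 higher. With a library left out, RBCK1 ranged from −3.90 to −3.85, ANXA1 from −0.39 to −0.34, and the antiviral genes called lower stayed at 46. Depth limits low genes: at under 1 FPKM a gene rests on few reads.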

Other observations

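Transcription factor families other than bZIP had smaller median changes, but not always fewer calls. Of 27 tested HMG-box factors, 16 were higher and 4 lower in shRBCK1, with a median log2 change of 0.16. In the bZIP family 21 of 35 were lower, with a median of −0.34. Of 59 homeobox factors 22 were higher and 12 lower, with a median of 0.11. Of 366 zinc finger factors of the C2H2 class, 92 were lower and 47 higher, with a median of −0.05. Over all genes tested 24.9% were lower and 24.1% higher, so the C2H2 share of lower genes is near that of all genes.

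Of 22 tested genes of the TGF-beta pathway 8 fell and 7 rose, with a median log2 change near 0. Those named here were chosen after their values were seen. The receptor genes TGFBR1 (5.5 to 7.23 FPKM) and TGFBR2 (40.8 to 55.4 FPKM) rose, the ligand gene TGFB2 fell from 30.6 to 20.02 FPKM and the feedback inhibitor SMAD7 from 18.4 to 13.1 FPKM.

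Of 14 tested histone genes 7 fell and 3 rose. The linker histone gene HIST1H1E was at 4.04, 4.3 and 4.62 FPKM in shcontrol and 0.346, 0.0784 and 0.294 FPKM in shRBCK1, and HIST1H2AC fell from 2.36 to 1.33 FPKM. Reads of near-identical histone copies may be split between them.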
